A study of Mus musculus with 2 samples.

Results

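The 10 genes described here, *Dcx*, *Ina*, *Nefl*, *Nefm*, *Sncg*, *Stmn2*, *Gap43*, *Mapt*, *Tubb3* and *Map2*, encode proteins of the neuronal cytoskeleton and the growth cone. They were chosen by symbol among the 31053 genes counted, and each had a single row. Single-cell RNA-seq was performed on mouse eyecups at E13.5, with 1 control and 1 double knockout (DKO) library. The control embryo was a littermate of genotype Six3+/-;Six6+/-, so it carried 1 null allele of each gene, and it was picked for normal eye morphology without GFP. The DKO embryo was Six3F/F;Six6-/-;a-Cre. The Cre transgene works in the peripheral retina and not in the central retina, so that DKO eyecups mix cells without *Six3* and cells that still have it, whereas *Six6* was lost in the germline. Each library came from the eyecups of a single embryo, and retina, lens and blood cells were captured together. Since each genotype had 1 library, no test was possible. All 95% intervals cover counting error only and hold no variation between embryos, and cells of 1 library are not replicates.

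A young neuron leaves the cell cycle, polymerizes neuron-specific microtubules, extends an axon behind a growth cone and then fills the axon with neurofilaments. Tubulins are the subunits of microtubules, doublecortin, tau, MAP2 and stathmins bind microtubules or tubulin, and neurofilament subunits and alpha-internexin build the intermediate filaments of axons. In the mouse retina the first neurons to do so are retinal ganglion cells, which arise from progenitors that switch on the proneural gene *Atoh7* and then express *Pou4f2* and *Isl1*.

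The genes lie on 8 chromosomes, and *Nefl* and *Nefm* overlap on chromosome 14 on opposite strands (mm10, GENCODE annotation of GRCm38). *Tubb3* shares its strand with *Gm20388*, a gene model that overlaps it, and reads that fit both would not be counted for either. The upstream sequences of 4 members are shown because these 4 differ most in when they appeared or in how they differed between the libraries: *Tubb3* appeared early, *Sncg* late, and *Dcx* and *Ina* differed most between DKO and control neurogenic cells. The letters are RefSeq sequence of GRCm38.p6, 5′ to 3′ on the strand of the gene, and end at or before the start of the annotated gene. Capitals mark a CAGCTG.
Tubb3, chr8:123411303-123411423 (+): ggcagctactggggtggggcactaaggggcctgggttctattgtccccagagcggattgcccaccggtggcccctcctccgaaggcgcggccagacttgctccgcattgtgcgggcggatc
Dcx, chrX:143933312-143933469 (-): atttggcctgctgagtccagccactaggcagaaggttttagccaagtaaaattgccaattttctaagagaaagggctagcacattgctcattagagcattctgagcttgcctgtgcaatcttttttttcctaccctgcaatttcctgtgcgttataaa
Ina, chr19:47014431-47014680 (+): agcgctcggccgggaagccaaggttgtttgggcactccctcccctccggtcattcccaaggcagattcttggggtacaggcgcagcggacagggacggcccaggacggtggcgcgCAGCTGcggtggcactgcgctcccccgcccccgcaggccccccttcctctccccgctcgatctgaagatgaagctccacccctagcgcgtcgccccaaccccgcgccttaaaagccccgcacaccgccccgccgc
Sncg, chr14:34374790-34374919 (-): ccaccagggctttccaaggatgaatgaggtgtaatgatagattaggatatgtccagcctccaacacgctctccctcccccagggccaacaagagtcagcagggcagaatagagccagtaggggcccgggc
CAGCTG and CAGATG, each on both strands, are forms of the E-box that basic helix-loop-helix factors bind. RefSeq windows were matched for 5 of the 10 genes. In windows of 250 bases before the RefSeq start, which reach past the annotated gene start for some genes, CAGCTG was found once for *Ina* and CAGATG once for *Sncg*. Neither was found for *Tubb3*, *Map2* or *Dcx*. Among all 32851 windows, 4271 held CAGCTG and 4745 held CAGATG.

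Cells were kept when they had over 200 but under 6000 genes and less than 20% mitochondrial UMIs, which left 9822 in the control and 12146 in the DKO library, with medians of 7620 and 5879 UMIs (unique molecular identifiers, each a captured transcript). The libraries shared 22 barcodes. Cells were clustered without the 10 genes among the features, and clusters were named from marker genes. Along the ganglion cell path this gave naïve progenitor-like cells (3473 control, 3470 DKO), neurogenic cells with cell cycle genes (580 and 421), neurogenic cells leaving the cycle (791 and 1256), early ganglion-like cells that still had *Atoh7* (611 and 1106) and late ganglion-like cells (362 and 1106). A further class of 546 cells had markers of the thalamic eminence or forebrain (*Eomes*, *Lhx9*, *Tbr1*, *Rspo3*) and held only DKO cells, so that cell type and library cannot be told apart for it. Its border depended on the clustering, and other settings gave it 814 to 1453 DKO and up to 85 control cells. A ganglion-like cluster with 85.9% doublets was set aside.

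The targeted genes were checked first. Levels are UMIs per 1000000 UMIs of a class (CPM). *Six6* stood at 368 CPM in control naïve cells and at 45.0 in DKO naïve cells, a log2 ratio of -3.03 (95% interval -3.11 to -2.95). *Six3* stood at 307 and 230 CPM, a log2 ratio of -0.41 (-0.46 to -0.37). The kit reads the 3′ ends of transcripts, outside the deleted first exon of *Six3*, so the *Six3* level reflects the deletion only indirectly. The study reported that 3′ coverage also fell in compound mutant retinas, and used low *Six3* levels to outline deficient cells. In the DKO-only class *Six3* was 8.12-fold under DKO late ganglion-like cells. DKO cells were not sorted by their *Six3* UMIs here. In late ganglion-like cells *Six3* was 689.8 in control and 771 in DKO.

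In control cells, all 10 genes were higher in late ganglion-like cells than in naïve progenitor-like cells, by log2 5.45 (*Map2*) to 10.13 (*Sncg*). The median over the 10 genes was a log2 ratio of 8.43, while 15.7% of the 11037 genes compared were at least 2-fold higher in the same contrast. The genes did not appear together. They were grouped by the share of the late ganglion level that was present in neurogenic cells leaving the cycle. UMI counts from 3′ ends do not grow with transcript length, and each gene is set here against its own late level only.

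The early group held *Tubb3*, *Map2* and *Stmn2*. *Tubb3*, the neuron-specific beta-tubulin, was at 27.1 CPM in naïve cells, 624 in cycling neurogenic cells, 1442 in cells leaving the cycle, 3291 in early and 3492 in late ganglion-like cells. It thus stood at 17.9% (17.2% to 18.5%) of its late level while cell cycle genes were still present, and at 41.3% (40.3% to 42.3%) on leaving. *Map2*, which binds microtubules of cell bodies and dendrites, stood at 7.82% and 27.0% of its late level in the same classes. *Stmn2*, a stathmin of growth cones that binds tubulin, stood at 2.34% and 16.8%. These 3 genes therefore had more of their difference, on the log scale, before the ganglion-like classes than after, and their intervals in cells leaving the cycle did not overlap one another.

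*Dcx*, *Ina* and *Gap43* followed. Doublecortin, a microtubule-binding protein of migrating neurons, stood at 4.55% (3.89% to 5.28%) of its late level in control cells leaving the cycle. Alpha-internexin (*Ina*) stood at 2.25% (2.01% to 2.51%), and the growth cone membrane protein *Gap43* at 2.17% (1.99% to 2.38%), and the intervals of these 2 overlap. By the early ganglion-like class they had reached 61.0%, 51.2% and 37.9%.

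The late group was the neurofilament subunits, tau and gamma-synuclein. In control cells leaving the cycle *Mapt* was at 1.61%, *Nefm* at 1.33%, *Nefl* at 0.715% and *Sncg* at 0.144% of the late level, and the interval of *Mapt* (1.24% to 2.05%) overlaps that of *Nefm* and also those of *Gap43* and *Ina*, so its place in this group is not resolved. *Sncg*, a synuclein abundant in ganglion cells, was at 4.34 CPM (2.69 to 6.63) in these cells and at 2.45 (1.54 to 3.71) in red blood cells, which do not make it. These 2 intervals overlap, so *Sncg* was not resolved from the level of free RNA in control cells leaving the cycle. It was at 4.74 CPM in cycling neurogenic and 2.69 CPM in naïve control cells. From cells leaving the cycle to early ganglion-like cells the log2 difference was 7.09 for *Sncg*, 5.99 for *Nefl* and 5.53 for *Nefm*, against 1.19 for *Tubb3*. *Mapt* had 3.95, below *Ina* (4.51) and *Gap43* (4.12). This step starts from the level that set the groups, so its size is no separate evidence for them. At this step all 10 genes were at least 2-fold higher, as were 7.81% of the 7922 genes compared.

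**Figure D1:**
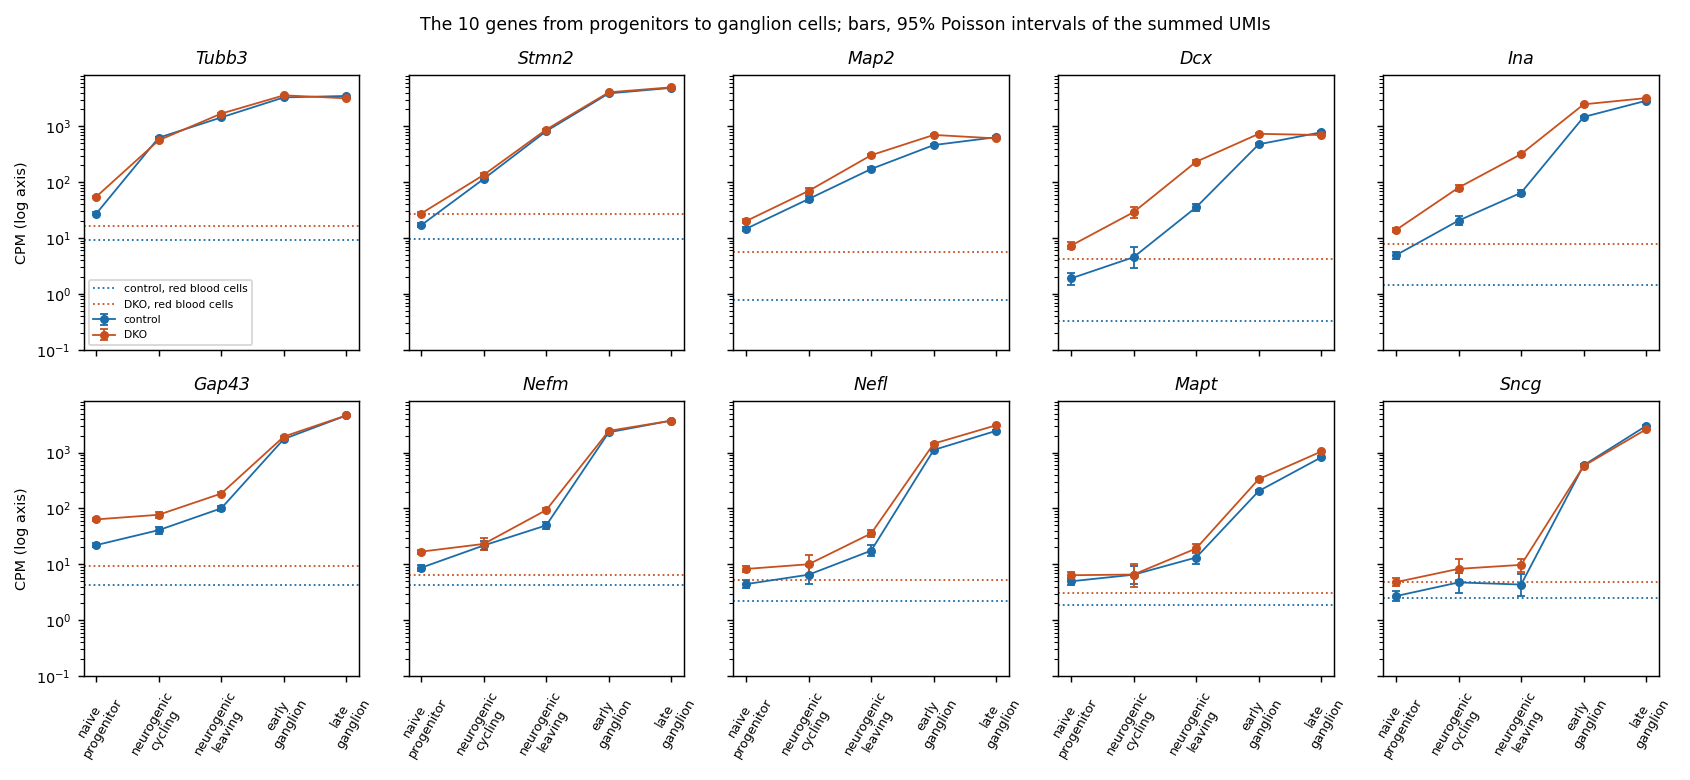
CPM (log axis) of each of the 10 genes in 5 classes from naïve progenitors to late ganglion cells, for the control (blue) and DKO (orange) library, with 95% Poisson intervals and dotted lines at the level in red blood cells of the same library. *Tubb3* is at 624 in cycling neurogenic control cells, while *Sncg* stays near the red blood line until the early ganglion class, and the DKO line lies above control for *Dcx* and *Ina* in neurogenic cells.

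Detection of the genes in single cells was nested. DKO cells were shallower, so 2000 UMIs were drawn from every cell, which left out 70 of 6885 control and 190 of 9282 DKO retinal cells. Among control cells with an *Atoh7* UMI, 94.9% (93.4% to 96.2%) of the 1046 cells with *Stmn2* also had *Tubb3*, while 64.5% (62.0% to 66.9%) of the 1540 cells with *Tubb3* had *Stmn2*. Of the 218 with *Sncg*, 97.7% had *Tubb3*, and 13.8% of those with *Tubb3* had *Sncg*. *Nefm* was found in 88.5% of cells with *Nefl*, and *Nefl* in 63.5% of cells with *Nefm*. Both directions of a pair use the same overlapping cells, so the gene found in more cells always has the smaller share. A gene with more UMIs is found in more cells at any depth, so these shares do not separate order from abundance.

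The onset in *Atoh7*-positive cells was followed with groups set by *Atoh7*, by *Pou4f2* or *Isl1*, and by 12 cell cycle genes, none of which is a member. Control cells with *Atoh7* but neither *Pou4f2* nor *Isl1*, and with a cell cycle UMI (886 cells), had *Tubb3* in 47.5% (red blood cells 1.60%), *Stmn2* in 16.0% (1.79%), *Map2* in 9.14% (0.188%) and *Dcx* in 1.13% (0.0941%). In the 365 such cells without a cell cycle UMI the shares were 78.4%, 54.5%, 29.3% and 14.0%. With *Pou4f2* or *Isl1* beside *Atoh7* (869 cells) they were 95.9%, 81.1%, 42.1% and 30.3%. The median unthinned depth was 6962 UMIs in this last group and 8465 in control red blood cells.

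The neurofilament genes *Nefl* and *Nefm* differed along the same groups. *Nefl* was found in 0.903% of the 886 control cells with a cycle UMI, close to the 0.564% of red blood cells, in 7.40% of cells without a cycle UMI, in 34.9% of cells with *Atoh7* and *Pou4f2* or *Isl1*, and in 78.9% of the 517 cells with *Pou4f2* or *Isl1* alone. *Sncg* followed with 1.02%, 5.75%, 21.6% and 72.1%. *Nefm* was found in 2.60%, 12.1%, 46.5% and 84.7% of them (red blood cells 0.659%). *Dcx* had 1.13%, 14.0%, 30.3% and 63.6%, so *Nefm* was above it except in cells without a cycle UMI. *Nefl* was above *Dcx* where *Pou4f2* or *Isl1* was present. These shares therefore do not place the neurofilament genes after *Dcx*. The median number of the 10 genes found per cell went from 1 to 2, 4 and 9 over these 4 groups.

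Among cells with *Atoh7* but without a UMI of *Pou4f2* or *Isl1*, most of these genes were found in a larger share of DKO than of control cells. In the 796 DKO cells with *Atoh7* and a cycle UMI but no *Pou4f2* or *Isl1*, *Dcx* was found in 12.2%, against 1.13% in control, and *Ina* in 16.8% against 4.51%. *Gap43* was found in 17.7% against 4.85%, and *Stmn2* in 25.8% against 16.0%. The median unthinned depth of this group was 5732.5 UMIs in DKO and 8051.5 in control cells. In red blood cells of the DKO library, at a median of 6370 UMIs, *Dcx* was found in 0.560%, *Ina* in 1.12%, *Gap43* in 1.87% and *Stmn2* in 4.10%. In the 753 DKO cells without a cycle UMI *Dcx* reached 43.4% against 14.0% in control and *Ina* 54.1% against 27.7%. *Nefm* stood there at 17.1% against 12.1%, with a log2 ratio of thinned UMIs of 0.12 (-0.15 to 0.40), and *Sncg* at 5.58% against 5.75%, with a log2 ratio of -0.014 (-0.54 to 0.53). A UMI of at least 1 of the 10 genes was found in 78.3% of all control and 87.2% of all DKO *Atoh7*-positive cells. Larger DKO shares were not confined to *Atoh7*-positive cells. Retinal cells with neither *Atoh7* nor *Pou4f2* or *Isl1* (4178 control, 5693 DKO) included the DKO-only class. *Dcx* was found in 18.1% of these DKO cells against 2.42% in control, and *Ina* in 19.2% against 3.71%. In the naïve progenitor-like cells among them *Dcx* was found in 1.25% against 0.314%.

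*Atoh7* itself was lower in DKO cells, at 1678 against 2809 CPM in cells leaving the cycle, so a UMI of *Atoh7* does not choose the same cells in both libraries. *Pou4f2* and *Isl1* were lower as well, with log2 ratios of -1.08 and -1.39 in cells leaving the cycle and -1.44 and -0.75 in early ganglion-like cells. DKO cells without a UMI of either are therefore not necessarily at the same step as such control cells. Many DKO cells with *Atoh7* also had UMIs of the thalamic eminence or forebrain markers. Such cells were left out only among all *Atoh7*-positive cells, with or without *Pou4f2* or *Isl1*, and not within the groups above. Without cells that had such a UMI after thinning, 1449 DKO and 1923 control *Atoh7*-positive cells remained. The log2 ratio of thinned UMIs was then 0.88 (0.70 to 1.06) for *Dcx* instead of 1.29 and 0.67 (0.57 to 0.78) for *Ina* instead of 1.12. For *Sncg* it became 0.30 (0.11 to 0.49) instead of -0.026, and for *Nefm* 0.53 instead of 0.25.

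**Figure D2:**
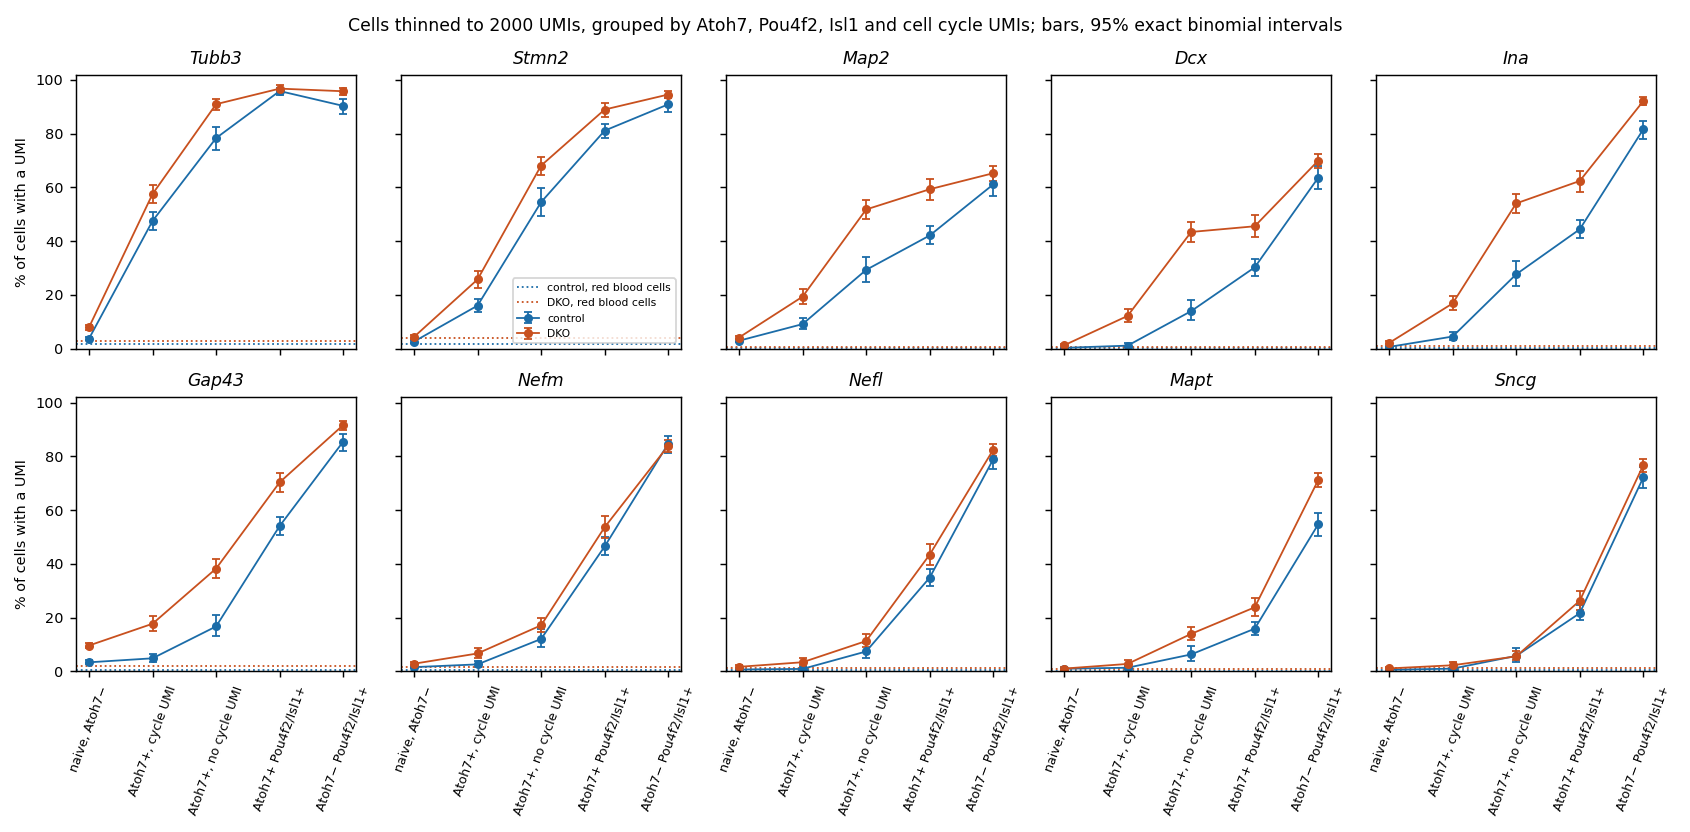
Percent of cells with a UMI of each gene after thinning to 2000 UMIs, in naïve cells without *Atoh7* and in 4 groups set by *Atoh7*, *Pou4f2* or *Isl1* and cell cycle UMIs, with 95% exact binomial intervals and dotted lines for red blood cells. *Tubb3* is at 47.5% in cycling control *Atoh7*-positive cells and *Sncg* at 1.02%, and the DKO share of *Dcx* in cells without a cycle UMI is 43.4% against 14.0%.

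By class, the median log2 ratio of DKO to control over the 10 genes was 0.93 in naïve, 0.55 in cycling neurogenic, 0.89 in leaving, 0.26 in early ganglion-like and 0.0011 in late ganglion-like cells. In cells leaving the cycle the ratio was above 0 on the log2 scale for all 10 genes, and the median of all genes compared was -0.0059. *Dcx* was at 35.5 CPM in control and 232 in DKO cells, which is 2.71 (2.48 to 2.94) on the log2 scale. *Ina* was at 64.7 and 318, with a log2 ratio of 2.30 (2.12 to 2.48). *Nefl* (1.02) and *Sncg* (1.17) also passed 2-fold, from 17.6 to 35.7 and from 4.34 to 9.76 CPM, and *Sncg* had fewer than the 100 UMIs needed to be compared with the background. In red blood cells the log2 ratio of *Sncg* was 0.96 (2.45 and 4.76 CPM). *Nefl* did not pass 2-fold at resolution 0.3 (0.73), with libraries merged (0.75), with all genes as clustering features (0.36) or with another linear algebra kernel (0.64), and *Sncg* did not at resolution 0.3 (0.26). At least 2-fold higher in DKO were 2.44% of the 8172 genes compared, and 1.3% were at least 2-fold lower. Of the early group, *Map2* had a log2 ratio of 0.82 (0.70 to 0.94), *Tubb3* of 0.23 and *Stmn2* of 0.093, and that of *Stmn2* was -0.030 when the libraries were merged without integration.

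In cycling neurogenic cells 5 of the 10 intervals lay above 0, 1 below it and 4 held 0. *Dcx* was at 4.54 CPM in control and 29.0 in DKO cells, and the log2 ratio was 2.68 (1.996 to 3.409) on 23 control and 84 DKO UMIs. *Ina* stood at 20.5 and 79.8, a log2 ratio of 1.96 (1.62 to 2.31). *Tubb3* was at 624 and 561, a log2 ratio of -0.15 (-0.24 to -0.065). The intervals of *Mapt*, *Nefl*, *Nefm* and *Sncg* held 0. This picture depended on the clustering: at the lower resolution (0.3) all 10 intervals lay above 0 and 8 genes passed 2-fold instead of 2, with *Tubb3* at 0.30, *Stmn2* at 1.03, *Map2* at 1.07 and *Mapt* at 1.71. Of 7422 genes compared, 0.862% were at least 2-fold higher and 0.525% at least 2-fold lower.

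In early ganglion-like cells 9 of the 10 ratios lay above 0, from 0.063 (*Stmn2*) to 0.75 (*Ina*), and *Sncg* was at 593 in control and 577 in DKO, a log2 ratio of -0.039 (-0.11 to 0.032). None of the 10 passed 2-fold, where 2.5% of the 8389 genes compared were at least 2-fold higher and 0.787% at least 2-fold lower. In late ganglion-like cells the 2 libraries were close. *Gap43* was at 4617 and 4629 CPM and *Nefm* at 3733 and 3729, with log2 ratios of 0.0038 (-0.023 to 0.030) and -0.0017 (-0.031 to 0.028). *Mapt* was higher in DKO by 0.35 and *Nefl* by 0.33, while the log2 ratio was -0.21 for *Sncg*, -0.16 for *Dcx* and -0.14 for *Tubb3*. The signs of *Dcx* and *Map2* (-0.075) turned at the lower resolution, to 0.078 and 0.15. Here 2.01% of the 8550 genes compared were at least 2-fold higher and 0.561% at least 2-fold lower, and none of the 10 was among them.

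Naïve progenitor-like cells held little of any member. All 10 intervals of the DKO to control ratio lay above 0 (8 to 10 under other settings on the CPM scale), with log2 ratios from 0.36 (*Mapt*) to 1.95 (*Dcx*). *Gap43* was at 22.0 CPM in control and 63.6 in DKO cells, *Tubb3* at 27.1 and 54.5 and *Dcx* at 1.89 and 7.30. The log2 ratio was 1 or more for *Dcx*, *Gap43*, *Ina* and *Tubb3*, where 2.5% of 11694 genes were at least 2-fold higher and 0.906% at least 2-fold lower. *Tubb3* ran from 0.33 to 1.33 under these settings and *Ina* was at 0.97 without cells that had a UMI of the thalamic eminence or forebrain markers. UMIs in red blood cells, taken here as free RNA, moved the same way. *Gap43* was at 4.23 and 9.51 there, *Tubb3* at 9.13 and 16.5 and *Dcx* at 0.334 and 4.20. The *Dcx* values rest on 3 control and 15 DKO UMIs. The part of free RNA in the naïve ratios was not tested. In DKO cells the naïve and red blood intervals overlapped for *Sncg* (4.79 and 4.76 CPM), *Stmn2* (27.3 and 26.9), *Dcx* (7.30 and 4.20) and *Nefl* (8.26 and 5.31). *Gap43* lay further from its red blood level, and it was found in 9.74% of thinned DKO naïve cells against 1.87% of DKO red blood cells. In control naïve cells the share was 3.34%. *Gap43* was not confined to the neuronal path. In a class with pigment cell markers (861 control, 1068 DKO cells) it was at 68.3 CPM in control and 127 in DKO. It was found there in 12.8% of control and 18.1% of DKO cells after thinning.

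**Figure D3:**
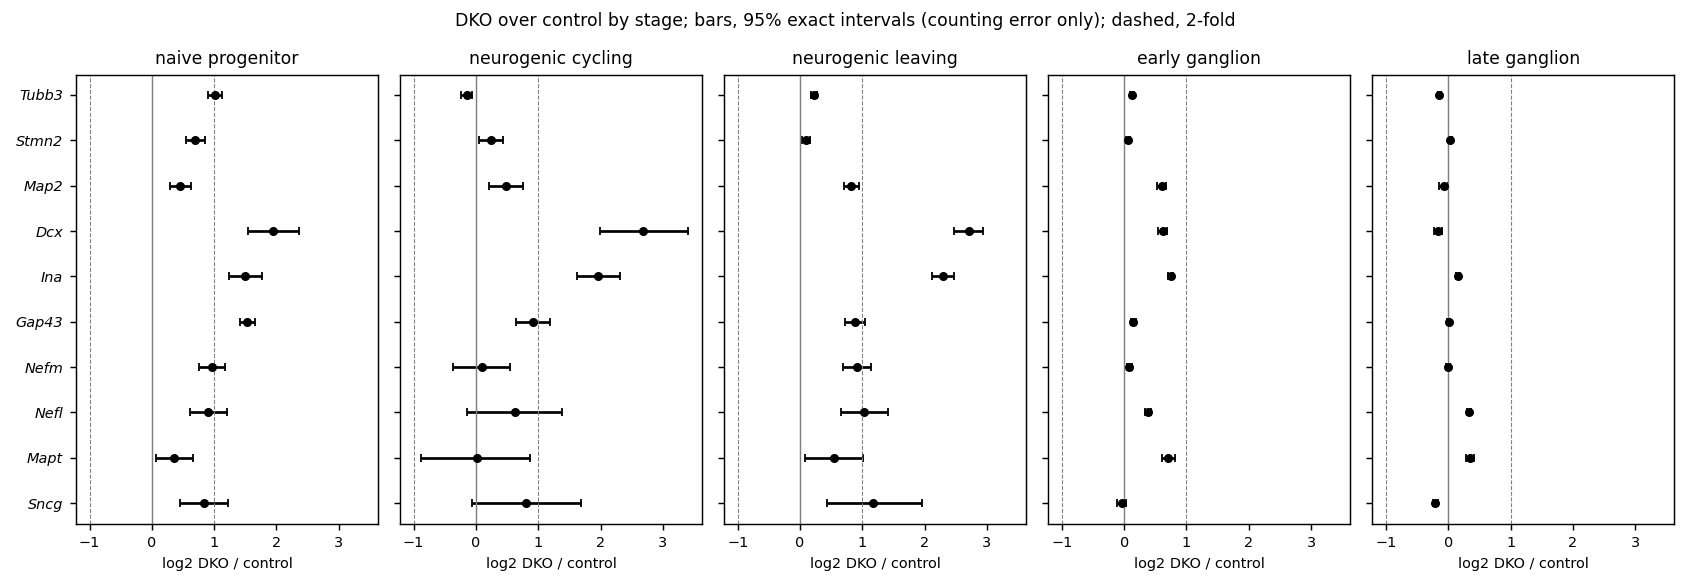
Log2 ratio of DKO to control for each gene in 5 classes, with 95% exact intervals that cover counting error only and dashed lines at 2-fold. *Dcx* and *Ina* are at 2.71 and 2.30 in neurogenic cells leaving the cycle, and all 10 genes lie between -0.21 and 0.35 in late ganglion-like cells.

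The DKO-only class of thalamic eminence or forebrain-like cells had some of the 10 genes at neuronal levels and lacked others. *Tubb3* was at 3155 CPM there and at 3166 in DKO late ganglion-like cells, a log2 ratio of -0.0050 (-0.042 to 0.032). *Dcx* was at 947 and *Map2* at 986, above DKO late ganglion-like cells by log2 0.44 and 0.70. *Stmn2* was at 2934 and *Ina* at 1355, below by 0.77 and 1.24. The neurofilament subunits were far lower: *Nefm* was at 182 CPM, 20.5-fold under DKO late ganglion-like cells, and *Nefl* at 98.9, 31.2-fold under. *Sncg* was at 8.91 (5.52 to 13.6), 293-fold under, and 4.76 in DKO red blood cells. *Gap43* was 8.86-fold and *Mapt* 3.03-fold under. These classes were set apart by clustering and the differences are given as a description. *Isl1* (18.2) and *Pou4f2* (2.97) were also near 0 in this class.

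DKO cells of the early ganglion-like class were mixed in the same respect. A UMI of the 7 thalamic eminence or forebrain markers was found in 66.6% of the 1106 DKO cells and in 30.8% of the 611 control cells of the class. DKO cells without such a UMI (369 cells) had *Nefm* at 4476 CPM, *Nefl* at 2699, *Gap43* at 2782 and *Sncg* at 1028. Against all control cells of the class, these are log2 ratios of 0.96, 1.28, 0.67 and 0.79. DKO cells with such a UMI (737 cells) had *Nefm* at 1481, *Nefl* at 855, *Gap43* at 1530.2 and *Sncg* at 364, with log2 ratios of -0.64, -0.38, -0.19 and -0.70. *Dcx* and *Ina* went the other way, with log2 ratios of 0.34 and 0.52 without and 0.74 and 0.85 with a UMI of these markers. The ratio near 0 of *Sncg* and *Nefm* in the whole class was thus an average over DKO cells above and below the control level. The split rests on unthinned counts and was made after the values had been seen, and shallow cells are more often without a marker UMI.

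Cells leaving the cycle divided likewise, with such a UMI in 61.8% of DKO and 22.1% of control cells. *Dcx* was at 299 CPM in DKO cells with and 114 in DKO cells without it, and at 35.5 in control cells of the class. *Ina* was at 399 and 176, and at 64.7 in control. Both genes were thus above control in DKO cells of either kind. *Nefm* was at 48.9 with and 172 without it, and at 49.8 in control.

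**Figure D4:**
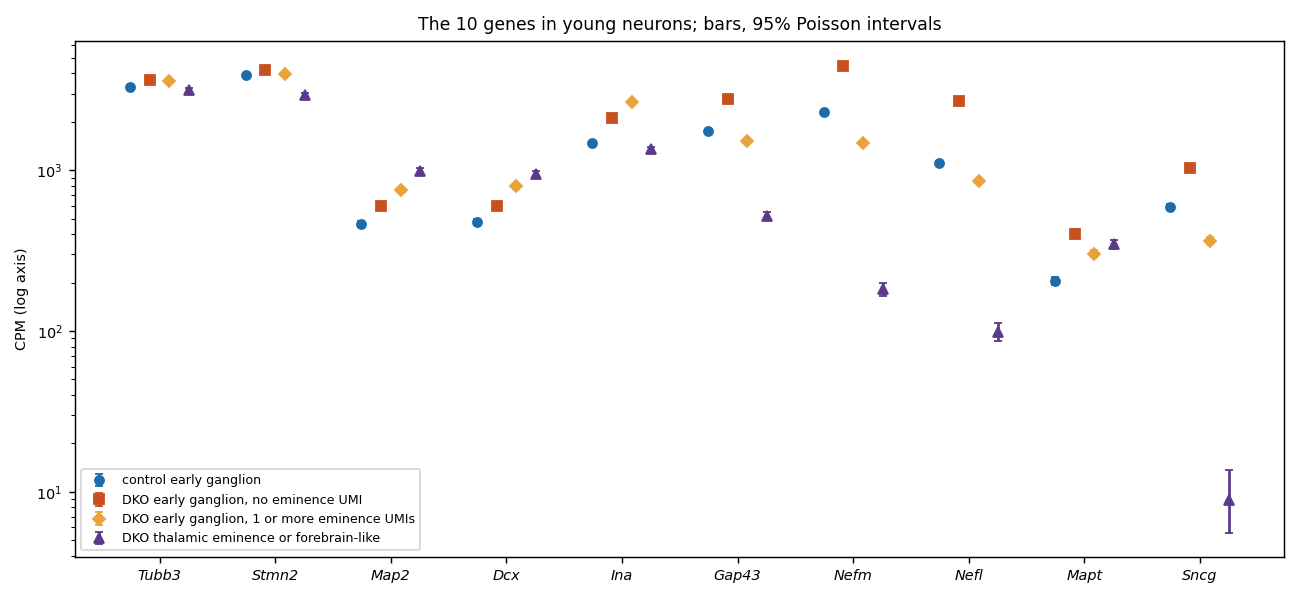
CPM (log axis) of the 10 genes in control early ganglion-like cells, in DKO early ganglion-like cells without and with a UMI of thalamic eminence or forebrain markers, and in the DKO-only class with these markers, with 95% Poisson intervals. *Nefm* is at 4476 in DKO cells without and 1481 in those with a marker UMI, and *Sncg* is at 8.91 in the DKO-only class.

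Other early neurons of the retina had part of the set. In control amacrine or horizontal-like cells (121 cells) *Stmn2* was at 2019 and *Tubb3* at 1839 CPM, which were 41.4% and 52.7% of the late ganglion level, while *Nefl* was at 4.88% and *Sncg* at 0.237% of it. In control photoreceptor-like cells (86 cells) *Map2* was at 82.3% of the late ganglion level, *Tubb3* at 35.9% and *Sncg* at 0.146%. Of the 10 genes, *Mapt* had the highest DKO ratio in amacrine or horizontal-like cells, from 58.5 to 155, a log2 ratio of 1.41 (0.89 to 1.95).

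Of 65 other genes of the neuronal cytoskeleton, growth cone and axon, 43 were at least 2-fold higher in control late ganglion-like than in naïve cells and 6 at least 2-fold lower, out of 58 with enough UMIs, against 15.7% and 23.8% of all genes compared. The lower ones were the tubulins *Tuba1b*, *Tuba1c*, *Tubb4b* and *Tubb6*, the microtubule-binding gene *Map7* and *Nes*, the intermediate filament gene of neural progenitors. Between the libraries, 4 of 54 listed genes were at least 2-fold higher in DKO cells leaving the cycle, and none lower. These were *Sncb*, *Kif21a*, *Cntn2* and *Nrcam*. Of all genes compared, 2.44% were higher and 1.3% lower. The median log2 ratio was 0.23 for the listed genes and -0.0059 for all genes compared. In late ganglion-like cells *Shtn1* and *Chl1* were higher and *Cntn2* lower, out of 57, where 2.01% of all genes were higher and 0.561% lower.

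Over early and late ganglion-like cells together, the ends of each list were as follows. The pool held 611 early and 362 late control cells, and 1106 of each kind in DKO, so its ratios also hold the mix of stages. *Sncg* had log2 ratios of -0.039 in early and -0.21 in late cells, but 0.072 in the pool. The part of this mix in the other ratios was not tested. Among tubulins *Tubb2a* had a log2 ratio of 0.70 and *Tubb4a* of 0.53, against -0.094 for *Tuba1c* and 0.019 for *Tuba1b*. Among microtubule regulators *Stmn4* was at 229 and 418 CPM (log2 0.87) and *Mapre3* had a ratio of 0.55, while *Map1b*, a microtubule-binding protein of growing axons, was at 6991 and 5279 (-0.41) and *Map1a* at -0.35. Of the intermediate filament genes *Nes* had a ratio of 0.52, *Prph* of 0.46 (-0.11 to 1.06) and *Vim* of -0.15. Among synucleins and growth cone proteins *Shtn1*, which links actin flow to adhesion in growth cones, went from 8.17 to 28.7 (1.81) and *Sncb* from 1.83 to 5.78 (1.66), with *Dpysl4* at -0.099 and *Dbn1* at -0.060. Of the kinesins *Kif21a* had a ratio of 0.77 and *Kif5c* of 0.35, with *Kif5b* at -0.22 and *Kif3c* at -0.028. Among axon adhesion genes *Chl1* went from 1.83 to 17.4 (3.25) and *Ncam1* had a ratio of 0.52, while *Cntn2*, a cell surface protein of early axons, went from 398 to 218 (-0.87) and *Nfasc* had a ratio of -0.60. In this pool the adhesion genes ran from -0.87 (*Cntn2*) to 3.25 (*Chl1*, at only 1.83 CPM in control). The 10 cytoskeleton and growth cone genes ran from -0.011 (*Tubb3*) to 0.64 (*Mapt*) over the same cells.

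Over 29 profiles of classes and libraries, the genes most like the mean profile of the 10 members were *Stmn3* (Pearson r 0.98), *Gng3* (0.98), *Rtn1* (0.97), *Nsg2* (0.97), *Ttc9b* (0.97), *Rab6b* (0.97), *Tmem178b* (0.96), *Nhlh2* (0.96), *Mllt11* (0.96) and *Ebf1* (0.96), out of 6471 genes. The profiles share libraries and depth, and the values are a description. *Nhlh2* and *Ebf1* were among the markers that named the ganglion-like classes, so their place here is partly set by that naming. Among the members *Nefl* and *Nefm* were most alike (0.99) and *Sncg* and *Map2* least (0.58).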

How the data were processed

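Single-cell RNA-seq counts of 1 control and 1 DKO eyecup library were used. The authors mapped reads to mm10 (3.0.0) with Cell Ranger 3.1.0 and deposited raw UMI counts per gene and cell. Here, cells were filtered as in the study, integrated and clustered with Seurat 5.3.0 in R 4.3.3 (20 dimensions, resolution 0.5, OpenBLAS kernel Haswell), leaving out the 10 members, the listed pathway genes, genes named in the study, hemoglobin and sex-linked genes. The members and lists were chosen with earlier results of these data known, and the scoring rule for class names (3 detected markers, 75% above other cells) was set after clusters were seen. Doublets were scored with Scrublet (scanpy 1.11.5). Its automatic threshold called 0 control cells, so the DKO threshold of 0.225 was used for both (300 and 329 cells). Doublets were kept except in an alternative.

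Levels are summed UMIs per 1000000 with exact Poisson intervals. Ratios have intervals from the exact binomial split, and shares exact Clopper-Pearson intervals (Python 3.11.15, numpy 2.4.6, scipy 1.17.1, pandas 2.3.3, matplotlib 3.10.9). Counts past 2-fold used genes with at least 100 UMIs over both groups, with a floor of 3 UMIs. The libraries held 85589515 and 85173276 UMIs. Named genes were the members, the 2 highest and 2 lowest of each list in ganglion-like cells, the 10 most alike profiles, and *Six3*, *Six6*, *Atoh7*, *Pou4f2* and *Isl1*. Ratios were tested on simulated data. No Cre feature was among the genes counted, so all DKO cells of a class were used.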

Additional observations from a re-analysis of the deposited data

Results flagged for a closer look

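In the data, 4 of the 10 genes had a DKO to control ratio above 0 in one class and below 0 in another, with both counting intervals clear of 0. The differences between classes were not tested. *Dcx* had a log2 ratio of 2.71 in neurogenic cells leaving the cycle and -0.16 in late ganglion-like cells. *Sncg* had 1.17 and -0.21 in the same classes. The interval of its control level on leaving overlapped that of red blood cells, where the ratio was 0.96. *Map2* had 0.82 and -0.075. *Tubb3* had 1.01 in naïve progenitor-like cells, where red blood cells also had a ratio above 0 (0.85), and -0.15 in cycling neurogenic cells. The latter was 0.30 at resolution 0.3.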

How the results depend on the processing

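No paired analysis was possible because there was only 1 library of each kind. The medians named here are those over the 10 genes. On the scale log2 of the mean count per 10000 plus 1, which compresses low values, the control late to naïve median was 4.85 instead of 8.43, and the DKO to control medians were 0.095 in naïve, 0.29 in leaving and -0.032 in late ganglion-like cells. In cells leaving the cycle the median was 0.62 at resolution 0.3, 0.64 with all genes as clustering features and 1.39 without cells that had an eminence UMI, an alternative chosen after seeing the data. In early ganglion-like cells it was 0.54 with all genes and 0.64 without such cells. In late ganglion-like cells it was 0.090 at resolution 0.3, 0.090 at resolution 1, 0.044 with libraries merged, 0.085 with all genes, 0.092 with kernel Sandybridge and 0.099 without such cells. Resolution 0.3 gave no early ganglion-like class. The share of *Atoh7*-positive cells with any of the 10 genes was 83.0% (control) and 91.6% (DKO) at 4000 UMIs, 86.6% and 94.7% without thinning, and 80.0% and 88.6% at 2 *Atoh7* UMIs. Of the listed genes, 1 passed 2-fold in cells leaving the cycle at resolution 1, against 4, and 1402 genes did with no filter on low counts, against 305. Of 490 values of single members under the alternatives, 330 stayed within the reported interval, 156 moved out of it and 4 reversed: *Tubb3* in cycling neurogenic cells at resolution 0.3 (0.30), *Stmn2* in cells leaving the cycle with libraries merged (-0.030), and *Dcx* (0.078) and *Map2* (0.15) in late ganglion-like cells at resolution 0.3. At resolution 0.3, 8 genes passed 2-fold in cycling neurogenic cells, against 2. On the CPM scale, in cells leaving the cycle 2 to 6 genes passed 2-fold, against 4, and in naïve cells 2 to 4, against 4. Why these moved was not tested. Low UMI numbers limit *Sncg*, *Mapt* and *Nefl* before the ganglion-like classes.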
